A study of Homo sapiens with 6 samples.

Results

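The vascular endothelial growth factor (VEGF) family was examined in cultures of the established glioma line U251 across all 33 probe sets that the platform annotation assigns to exactly 1 of its 9 genes, out of 54675 probe sets on the array. The 9 genes, of 19775 with such a probe set, were the ligands VEGFA, VEGFB, VEGFC and PGF, the neuropilins NRP1 and NRP2, and the receptors FLT1, KDR and FLT4. They were chosen by family membership after VEGFC had been seen to read higher on aligned fibers, so the difference of VEGFC is given as a description with no test. Cells were grown for 24 h in medium with 10% serum on electrospun poly-caprolactone nanofibers, which were highly aligned in 3 cultures and randomly oriented in 3 cultures. Both groups carry the same untreated cell line on the same polymer, each culture was read on 1 Affymetrix HG-U133 Plus 2 array, and this 1 line is the whole model. The comparison asks which transcripts follow the orientation of the fibers.

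VEGF ligands are secreted dimers that drive the growth and leakiness of blood and lymphatic vessels. VEGFA signals mainly through the tyrosine kinase receptor KDR, PGF and VEGFB bind FLT1, and VEGFC binds FLT4 and, once processed, KDR. Neuropilins are co-receptors without a kinase domain that bind VEGF forms and class 3 semaphorins. Glioma cells are known as a source of VEGFA, while the receptors are known mostly from endothelial cells.

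Of the 33 probe sets, 23 passed the filter on dim signals, which required a value over the array's own median on 3 or more of the 6 arrays. No probe set passed through the aligned arrays alone. The 10 that did not pass were 5 of 6 for FLT1, all 3 for FLT4, 1 of 4 for NRP1 and 1 of 11 for NRP2. Values are log2 RMA values, in which 1 unit is a doubling. Levels of different probe sets are not on a common scale, so each is placed by its percentile among the probe sets of its own array. In limma with Benjamini-Hochberg adjustment 0 of 27621 probe sets (0%) reached an adjusted p under 0.05, and 9.69% had an unadjusted p under 0.05. Of the 22 probe sets of the family other than that of VEGFC, 0 reached the adjusted threshold and 2, or 9.09%, had an unadjusted p under 0.05, which is near the background. Those 2 were the probe set of VEGFB and 1 of the 2 for PGF. That count of 2 was 4 without aligned 1, 0 without random 1 and 1 without any other single array. Over all 27621 probe sets the count of 2676 became 4812 without aligned 1 and 2641 without random 1. Without any other single array it was 1262 to 2440.

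The array of aligned 3 stood apart from the rest. Over 12381 genes its values deviated from the averaged random arrays by a root mean square of 0.38 log2 units, against 0.17 for aligned 1 and 0.19 for aligned 2. The labelled cell type was checked on 7 glial and glioma markers. VIM, CD44, FABP7, NES and SLC1A3 lay at percentile 86.0 or above on every array, GFAP lay between percentiles 36.4 and 64.6, and S100B did not pass the filter. All 6 measured glial markers read lower on aligned fibers, with a median log2 difference of -0.20 and adjusted p values in limma from 0.482. That median ran from -0.37 when aligned 1 was left out to -0.10 when aligned 3 was, and FABP7 moved from -0.90 to -0.32 without aligned 3. S100B, below the filter, differed by -1.13 (aligned minus random, log2) without overlap of the groups. Over all kept probe sets 8.86% read lower on aligned fibers without overlap. The part of these differences in the results on the VEGF family was not tested.

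VEGFC, a ligand known for the growth of lymphatic vessels, read 8.66, 8.84 and 9.01 on the aligned arrays and 8.40, 8.31 and 8.33 on the random arrays (209946_at). Every aligned value lay above every random value, and the lowest aligned value came from aligned 1. The aligned mean was 8.84 ± 0.17 and the random mean 8.35 ± 0.05 (SD, n = 3 per group). Their log2 difference was 0.49 ± 0.10 (SE), which is 1.41-fold. Between arrays of the same number the difference was 0.26, 0.53 and 0.68 for numbers 1, 2 and 3. It was 0.40 without aligned 3, the array that stood apart, and 0.58 without aligned 1. VEGFC lay between percentiles 81.1 and 86.9, so it was read well inside the range of bright probe sets. Of the 23 kept probe sets of the family, 2 had groups that did not overlap, or 8.70%, against a background of 16.5%. That of VEGFC was the 1 that read higher on aligned fibers (background 7.61%), and a probe set of PGF was the 1 that read lower (background 8.86%). Since VEGFC was chosen on this contrast, nothing is drawn from that count.

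VEGFB, a ligand of FLT1 linked to fatty acid handling and cell survival, read 8.04, 7.73 and 7.41 on aligned and 8.14, 7.97 and 8.23 on random fibers (203683_s_at). Aligned 3 was the lowest array, and aligned 1 lay above random 2, so the groups overlapped. The log2 difference was -0.39 ± 0.16 (SE) with an adjusted p of 0.513 in limma. Without aligned 3 it was -0.23. Between arrays of the same number the values were -0.10, -0.25 and -0.81.

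The upstream sequences of VEGFC and VEGFB, the ligands with the largest log2 difference in each direction, are shown with that of NRP2, whose 11 probe sets all read lower on aligned fibers. Each is the 250 bases before the gene start in RefSeq on GRCh38.p14, written 5′ to 3′ on the strand of the gene, and capitals mark the GC box GGGCGG on either strand. RefSeq entries were matched for 6 of the 9 genes, and VEGFA, NRP1 and FLT4 were not among them. The VEGFC window is chr4:176792923-176793172 on the minus strand, the VEGFB window chr11:64234334-64234583 on the plus strand and the NRP2 window chr2:205682251-205682500 on the plus strand.
VEGFC: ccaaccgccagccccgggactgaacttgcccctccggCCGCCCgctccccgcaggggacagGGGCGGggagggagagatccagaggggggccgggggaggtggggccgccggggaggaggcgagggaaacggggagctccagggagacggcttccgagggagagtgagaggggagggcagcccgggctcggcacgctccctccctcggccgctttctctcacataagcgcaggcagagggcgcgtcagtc
VEGFB: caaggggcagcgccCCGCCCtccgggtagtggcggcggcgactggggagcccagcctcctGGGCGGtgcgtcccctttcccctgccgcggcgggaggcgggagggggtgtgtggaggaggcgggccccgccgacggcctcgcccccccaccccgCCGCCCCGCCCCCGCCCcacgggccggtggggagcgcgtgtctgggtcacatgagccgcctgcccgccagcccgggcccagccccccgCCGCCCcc
NRP2: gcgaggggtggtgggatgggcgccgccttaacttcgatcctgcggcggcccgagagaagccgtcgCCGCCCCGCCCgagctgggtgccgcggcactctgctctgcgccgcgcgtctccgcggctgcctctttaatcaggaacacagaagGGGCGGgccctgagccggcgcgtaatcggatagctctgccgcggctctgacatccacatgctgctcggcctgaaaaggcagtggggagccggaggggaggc
The VEGFC window held 2 GC boxes, at 213 and 189 bases before the start, the VEGFB window held 6 and the NRP2 window 3. A GC box, the binding motif of Sp1-type factors, was found in all 7 windows of the 6 genes and in 42.6% of the 35116 promoters of the same length. The 2 windows of PGF overlap and share a GC box, so they are not separate. GC content over all promoters was not computed, and nothing is drawn from that comparison. GC content was 74.0% for VEGFC, 82.8% for VEGFB and 70.0% for NRP2. The AP-1 motif TGANTCA (6.57% of promoters), the ACGTG form of the hypoxia response core (18.5%) and the ETS motif CCGGAA (14.5%) were searched on both strands. These letters were not in any of the 7 windows. The GCGTG form of the hypoxia response core was not searched, so its absence cannot be read from this. The TATA box TATAAA (10.7%), also searched on both strands, was found in that of FLT1 alone. Matches between different motifs did not overlap.

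PGF, a ligand that binds FLT1 but not KDR, gave opposite signs on its 2 probe sets. The first (215179_x_at) read 8.21, 8.22 and 8.04 on aligned and 8.41, 8.43 and 8.32 on random fibers. All aligned values lay below all random values. The log2 difference was -0.23 ± 0.08 (SE), with an adjusted p of 0.507 in limma. The second (209652_s_at), at percentiles 47.4 to 56.4, read 5.83, 6.04 and 5.58 on aligned and 5.76, 5.67 and 5.48 on random fibers. Here the groups overlapped and the log2 difference was 0.18 ± 0.13 (SE), with an adjusted p of 0.636 in limma. It was 0.07 without aligned 2, 0.099 without random 3 and 0.296 without aligned 3. Over the 6 arrays the 2 probe sets had a Pearson correlation of -0.02, so they give no common direction for PGF.

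VEGFA, the main vascular ligand and a textbook target of hypoxia-inducible factors, ranked high on every array, with its first probe set (210512_s_at) between percentiles 97.2 and 98.2. That probe set read 11.08, 11.48 and 11.66 on aligned and 11.28, 11.47 and 11.44 on random fibers. Aligned 1 was the lowest and aligned 3 the highest array, so the random values lay inside the aligned range. The log2 difference was 0.01 ± 0.15 (SE), with a 95% interval of -0.33 to 0.35 and an adjusted p of 0.982 in limma. The other 3 probe sets differed by -0.05 to 0.07, and the 4 varied alike over the 6 arrays, with pairwise correlations of 0.858 to 0.972. The sign depended on single arrays. Without aligned 1 all 4 differences were positive, from 0.12 to 0.18, and without aligned 3 all 4 were negative, from -0.16 to -0.01. The interval leaves room for a difference in either direction.

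**Figure D1:**
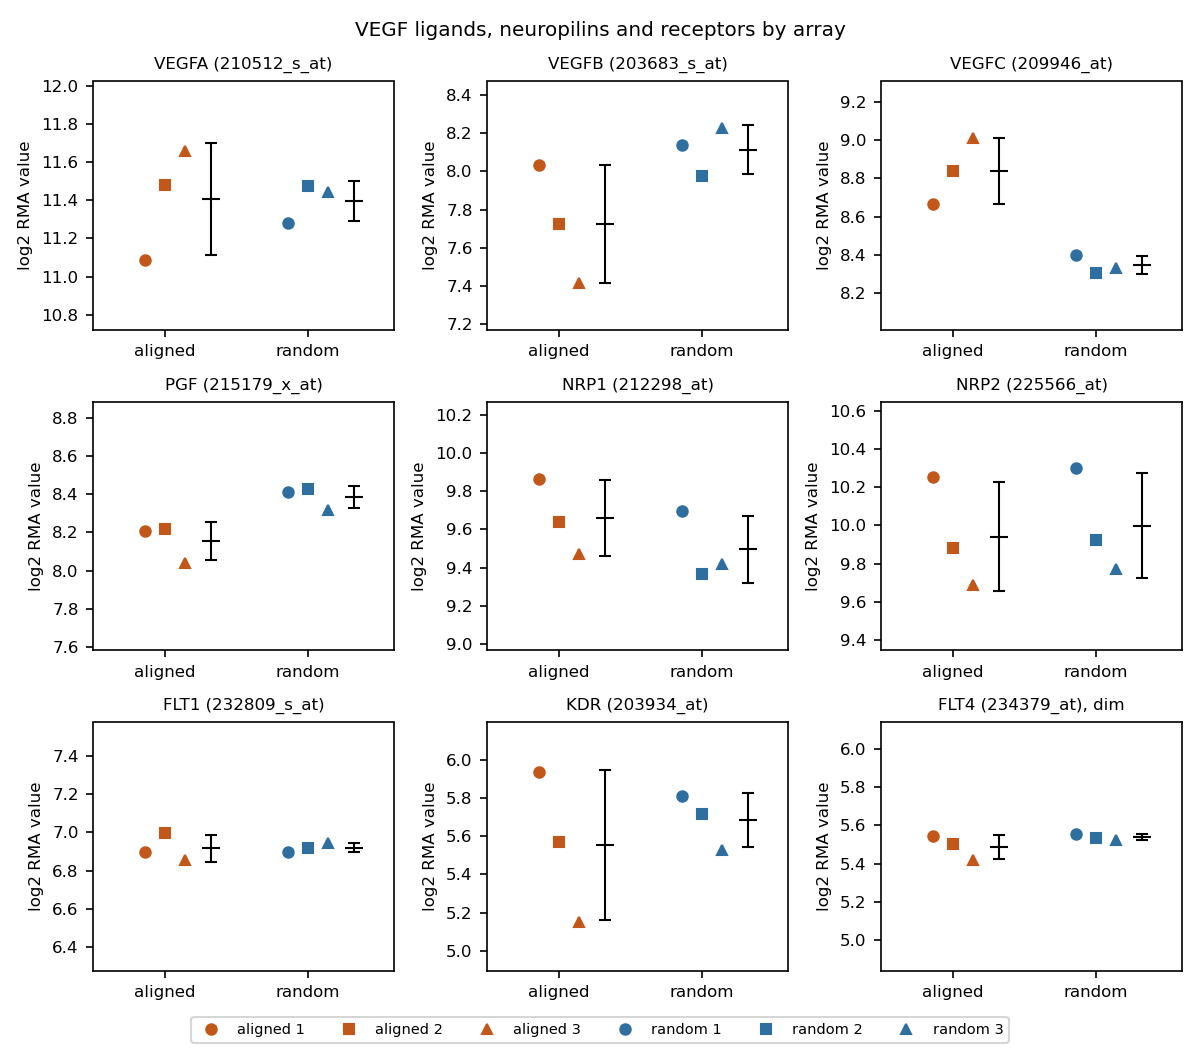
The log2 RMA value of the brightest probe set of each of the 9 genes is plotted for each aligned (orange) and random (blue) array, with marker shapes for replicate numbers and bars for the mean ± SD of 3 arrays; every panel spans the same number of log2 units. VEGFC shows no overlap, from 8.66 up on aligned against 8.40 down on random fibers. VEGFA, VEGFB, NRP2 and KDR spread widely within the aligned group, and NRP2 spreads about as much within the random group.

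NRP1, a co-receptor for VEGFA and semaphorins, read 9.87, 9.64 and 9.47 on aligned and 9.70, 9.37 and 9.42 on random fibers on its brightest probe set (212298_at). In both groups the array numbered 1 was the highest, and the groups overlapped. The log2 difference was 0.16 ± 0.13 (SE), with a 95% interval of -0.14 to 0.47 and an adjusted p of 0.660 in limma. It was 0.06 without aligned 1, 0.10 without random 2 and 0.26 without aligned 3 or random 1. Between arrays of the same number it was 0.17, 0.27 and 0.05. A second NRP1 probe set (210510_s_at) differed by 0.09 ± 0.12 and 210615_at, near the array median, by -0.05 ± 0.09 (SE). With an array left out these ran from 0.0088 to 0.18 and from -0.0994 to -0.0029. The first and second probe sets correlated by 0.956 over the 6 arrays, while the other pairs of the 3 kept probe sets correlated negatively, down to -0.339.

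NRP2, a co-receptor for VEGFC and semaphorins, had 11 probe sets, and all 11 read lower on aligned fibers, with log2 differences from -0.39 to -0.05. Probe sets of 1 gene read the same RNA, so they are not separate replicates of that sign. The 10 that passed the filter had adjusted p values of 0.569 to 0.953 in limma. The brightest (225566_at) read 10.25, 9.88 and 9.69 on aligned and 10.30, 9.93 and 9.77 on random fibers. The groups overlapped almost fully, the arrays numbered 1 were high and those numbered 3 were low in both. Its log2 difference was -0.06 ± 0.18 (SE), with a 95% interval of -0.48 to 0.36.

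The largest NRP2 difference was on 1555468_at, which read 7.54, 7.61 and 6.68 on aligned and 7.77, 7.74 and 7.495 on random fibers. Aligned 3 stood alone at the low end. The difference was -0.39 ± 0.24 (SE), with an adjusted p of 0.569 in limma, and -0.09 without aligned 3. Between arrays of the same number this probe set differed by -0.23, -0.13 and -0.82. In a fit blocked on these numbers its unadjusted p in limma went from 0.138 to 0.043 and its SE to 0.15, with an adjusted p of 0.371. There the SE of the 10 kept NRP2 probe sets was 0.067 to 0.154, against 0.18 to 0.29 without the block. For 225566_at it fell to 0.067, and no other kept NRP2 probe set had an unadjusted p under 0.05. Aligned 3 was the lowest array on all 11 NRP2 probe sets, and random 1 the highest on 9 of them. Without aligned 3 the 11 differences ran from -0.09 to 0.17. Between arrays of the same number they ran from -0.23 to 0.07 for number 1, from -0.13 to 0.21 for number 2 and from -0.82 to -0.06 for number 3. The SD over the 6 arrays was 0.25 to 0.46 on the kept NRP2 probe sets and at most 0.30 on any other kept probe set of the family. The probe sets of NRP2 varied together, with a median pairwise correlation of 0.944 and a lowest of 0.593 over 45 pairs of kept probe sets, all within these 6 arrays.

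**Figure D2:**
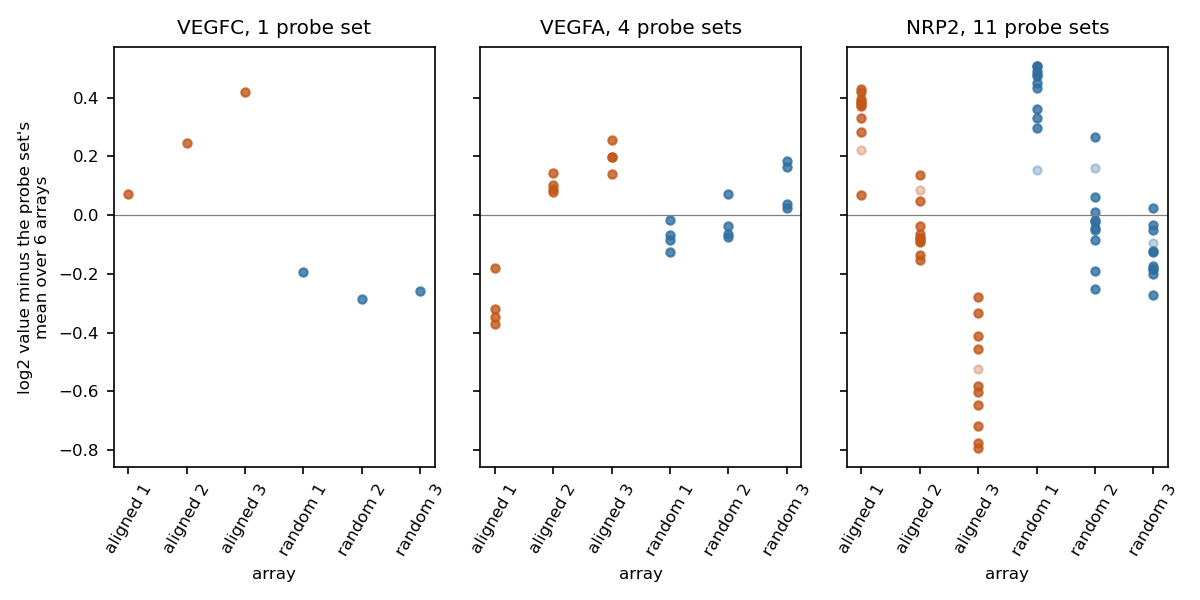
For VEGFC, VEGFA and NRP2 each point is the log2 value of 1 probe set on 1 array minus the mean of that probe set over the 6 arrays, with aligned arrays in orange, random arrays in blue and pale points for the dim NRP2 probe set. Aligned 3 is the lowest array on all 11 NRP2 probe sets and aligned 1 is the lowest on all 4 VEGFA probe sets, while VEGFC separates the groups.

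KDR, the main signalling receptor for VEGFA, lay near the array median. It read 5.94, 5.57 and 5.15 on aligned and 5.81, 5.71 and 5.53 on random fibers (203934_at), between percentiles 41.3 and 54.8, and passed the filter through 3 arrays. Aligned 1 was the highest and aligned 3 the lowest array, so the groups overlapped. The log2 difference was -0.13 ± 0.19 (SE), with an adjusted p of 0.802 in limma, and it turned to 0.07 without aligned 3.

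FLT1, a receptor for VEGFA, VEGFB and PGF with a weak kinase, passed the filter on 1 of 6 probe sets (232809_s_at). That probe set read 6.90, 6.99 and 6.86 on aligned and 6.90, 6.92 and 6.95 on random fibers. The values nearly coincided, with a log2 difference of -0.0041 ± 0.08 (SE), a 95% interval of -0.18 to 0.17 and an adjusted p of 0.986 in limma. The other FLT1 probe sets lay between percentiles 6.88 and 26.3, so 5 of 6 read at the dim end of the array.

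FLT4, the receptor of VEGFC and VEGFD on lymphatic endothelium, did not pass the filter on any of its 3 probe sets. The brightest (234379_at) read 5.54, 5.50 and 5.42 on aligned and 5.56, 5.53 and 5.53 on random fibers. The 3 FLT4 differences ran from -0.05 to -0.01 and the groups overlapped on each. A dim probe set can mean little RNA or poor hybridisation, which were not told apart here, and no detection calls were used.

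**Figure D3:**
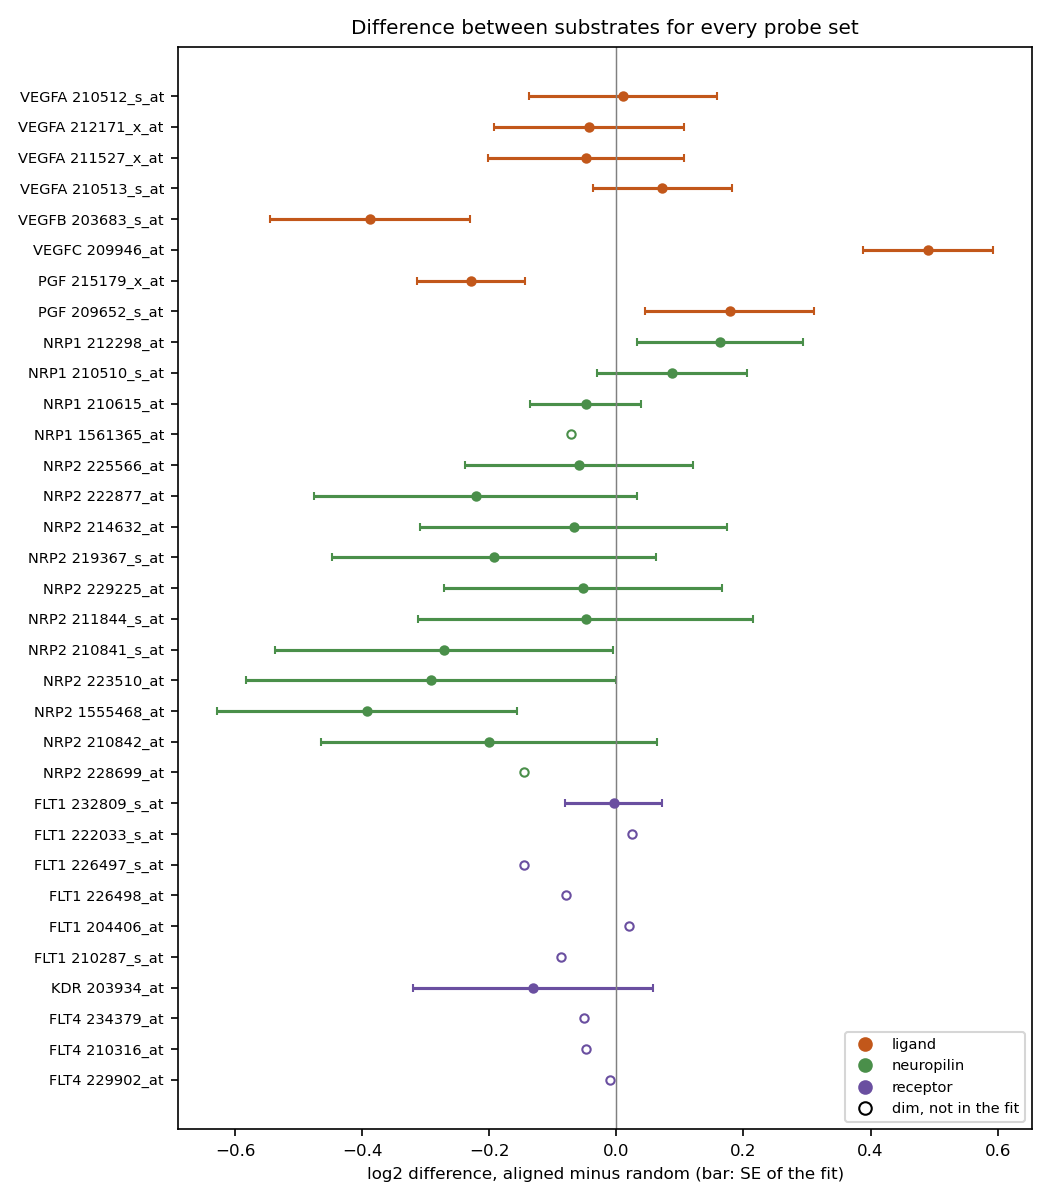
The log2 difference (aligned minus random) of all 33 probe sets is plotted by role, with the SE of the fit as bars and open points for the 10 dim probe sets that were outside it. The VEGFC point at 0.49 lies on the opposite side of 0 from VEGFB at -0.39 and from all 11 NRP2 probe sets.

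Markers of other cells were measured beside the receptors. Of 12 endothelial markers 2 passed the filter, PECAM1 and VWF. Of the other 10, ROBO4, ESAM, TEK and PLVAP lay near the array median, between percentiles 41.0 and 53.5, CLDN5 between 32.8 and 39.7, and CDH5, ERG, TIE1, EMCN and MMRN2 at or below 30.7. ROBO4 read higher on aligned fibers by 0.19 without overlap of the groups, and the other 11 overlapped. The summed linear signal of the 12 was 430 to 478 on aligned and 396 to 438 on random arrays. Of 6 leukocyte markers AIF1 and CD3E passed, ITGAM and CSF1R lay between percentiles 41.6 and 48.1, CD14 between 32.3 and 38.7 and PTPRC at or below 23.5. ITGAM read higher on aligned fibers by 0.19 without overlap and the other 5 overlapped, beside the same background shares. The leukocyte sums were 245 to 258 on aligned and 215 to 246 on random arrays. An array has no true zero, so these sums include background signal, and the part of these markers in the results on the family was not tested.

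Genes whose values ran most like those of VEGFC over the 6 arrays were S1PR1, FOXQ1, TMEM109, RRAS2 and IL23A, with Pearson correlations of 0.996, 0.994, 0.987, 0.987 and 0.987. S1PR1, a receptor for sphingosine 1-phosphate, read 6.30, 6.67 and 6.96 on aligned and 5.83, 5.76 and 5.82 on random fibers, so it too was highest on aligned 3. The transcription factor FOXQ1 and the GTPase RRAS2 had log2 differences of 0.59 ± 0.13 and 0.40 ± 0.08 (SE). VEGFC was chosen on this contrast, so genes picked for likeness to it differ between the groups by that choice. Nothing is drawn from their differences. With 6 arrays and 12381 genes to choose from, high correlations are frequent, and 131 genes exceeded 0.95. For VEGFA the nearest were DDX41, DEDD, PCED1A, SNX24 and GBA2, at 0.986 to 0.994, and all 5 were lowest on aligned 1. For NRP1 they were LINC00667, PECAM1, NUDT19, DDX10 and BCR, at 0.965 to 0.994. These correlations share the same 6 arrays and are a description only.

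The genes around the family were counted on 1 probe set per gene, the brightest that passed the filter. Over all 12381 genes 0 passed the adjusted threshold in limma (0%), while 1303, or 10.5%, had an unadjusted p under 0.05, and the median log2 difference was 0.01. In 7 lists of VEGF biology, 96 genes were measured, 0 passed the adjusted threshold (lowest adjusted p 0.463) and 18 had an unadjusted p under 0.05. Of the 96, 6 read higher at that threshold (4.72% of all genes) and 12 lower on aligned fibers (5.81% of all genes). The lists were written with earlier results of these data known, so nothing is drawn from the share of any list. Leaving out aligned 3 or random 2 gave 10 in place of 18, and leaving out random 3 gave 8. The count of 1303 over all genes moved as well. It was 2491 without aligned 1, 1037 without aligned 2 and 815 without aligned 3. Without random 1, 2 and 3 it was 1197, 739 and 624, and in the fit blocked on replicate number 1687. The counts of the lists under these settings stand beside those values.

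VEGF gene regulators, which sense oxygen, drive transcription or set mRNA stability, had 16 of 17 members measured, with a median of 0.04. Of these 5, or 31.2%, had an unadjusted p under 0.05, against 10.5% over all genes. EGLN3 and EGLN1, oxygen-sensing hydroxylases that mark hypoxia-inducible factors for degradation, differed by -0.54 ± 0.18 and -0.18 ± 0.07 (SE). The stress-response factor ATF4 differed by 0.64 ± 0.23, STAT3 by -0.40 ± 0.16 and the metabolic coactivator PPARGC1A by -0.38 ± 0.16. The count of 5 was 1 when the replicate number was a block. Leaving out aligned 3 gave 2, and leaving out random 2 or random 3 gave 1. Without aligned 3 ATF4 was at 0.39 and STAT3 at -0.22, and without random 2 PPARGC1A was at -0.22. The median ran from -0.05 without aligned 1 to 0.06 without random 3.

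Signalling genes downstream of the receptors had 44 of 59 members measured, with a median of -0.01. Of these 7, or 15.9%, had an unadjusted p under 0.05, against 10.5% over all genes. The kinase SPHK1, which makes sphingosine 1-phosphate, differed by 1.13 ± 0.33 (SE), or 2.18-fold, and by 0.73 without aligned 3. The kinase PRKD1 differed by -0.34 ± 0.08, the adaptor GAB1 by -0.48 ± 0.15 and the phosphoinositide 3-kinase subunit PIK3R1 by -0.39 ± 0.13, and by -0.26 without aligned 3. The median ran from -0.02 to 0.01 with an array left out. Leaving out aligned 3 or random 2 gave 4 in place of 7, and leaving out random 3 gave 2.

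Neuropilin partners, the class 3 semaphorins and plexins among them, had 9 of 15 members measured, with a median of 0.04. Of these 1, or 11.1%, had an unadjusted p under 0.05, against 10.5% over all genes. That was the plexin gene PLXNA3 at -0.18 ± 0.08 (SE). The neuropilin ligand SEMA3C differed by -0.64 ± 0.29 and by -0.27 without aligned 3, PLXNA2 by 0.38 ± 0.18, and by 0.17 without aligned 3, and the adhesion molecule L1CAM by 0.19 ± 0.09. The count of 1 was 4 without aligned 1, and 0 without aligned 3, random 2 or random 3 and in the blocked fit. Over all genes 1303 became 2491 without aligned 1. With an array left out the median ran from -0.035 without aligned 2 to 0.086 without aligned 3. It was -0.146 over 5 genes with the filter at the 75th percentile, and also with probe sets of suffix _x_at or _s_at left out. On the mean of all kept probe sets of a gene it was -0.057. For maturation of VEGFC and VEGFD, 4 of 8 genes were measured, with a median of 0.03 and 0 at an unadjusted p under 0.05. The proprotein convertases PCSK5, FURIN and PCSK7 differed by -0.14 ± 0.07, 0.08 ± 0.10 and 0.03 ± 0.08, and the protease CTSD by 0.02 ± 0.16. FURIN turned to -0.005 without random 1, and PCSK7 to -0.007 and CTSD to -0.098 without aligned 3. The median was -0.053 without aligned 3. CCBE1 and ADAMTS3, a cofactor and a protease of VEGFC maturation, did not pass the filter. ADAMTS14 did not pass either, and it read higher on aligned fibers by 0.30 without overlap of the groups. Over all kept probe sets 7.61% did so. With no filter 1 of 7 genes of this list, higher on aligned fibers, had an unadjusted p under 0.05. VEGFD, also in the list, had no probe set assigned to it alone.

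Genes known to be induced by VEGFA in endothelial cells had 7 of 14 members measured, with a median of 0.09. Of these 4, or 57.1%, had an unadjusted p under 0.05, 2 in each direction, against 10.5% over all genes. The chemokine CXCL8 differed by 1.82 ± 0.48 (SE) and the clotting initiator F3 by 0.67 ± 0.16, both known to read higher in these data when the list was written. STC1, a secreted glycoprotein, differed by -0.84 ± 0.23 and the immediate early factor EGR1 by -0.53 ± 0.23, and EGR1 stood at -0.28 without aligned 3. The 3 kept probe sets of EGR1 ran from -0.53 to -0.15. The count of 4 was 3 without aligned 3, random 1 or random 2, and on the mean of all kept probe sets of a gene. With probe sets of suffix _x_at or _s_at left out it was 1 of 3 genes measured. This list had a median that ran from 0.038 without aligned 3 to 0.16 without random 1. With the filter at the 75th percentile, where 5 genes were measured, it was -0.068. Among 11 of 13 other angiogenic factors measured, with a median of 0.09, 1 (9.09%) had an unadjusted p under 0.05. That was ANGPT1, the ligand of the endothelial receptor TEK, at -1.003 ± 0.30, and -0.64 without aligned 3. ANGPTL4 differed by 0.30 ± 0.13, ADM by -0.27 ± 0.13 and CCN1 by 0.34 ± 0.22. Without aligned 3 ANGPTL4 was at 0.16, and without random 3 ADM was at -0.135 and CCN1 at 0.08. The median ran from 0.02 without aligned 3 to 0.14 without aligned 1. The count of 1 was 4 in the blocked fit, 0 without random 3 and 2 without aligned 1, aligned 2 or random 2. Over all genes 1303 became 1687 in the blocked fit. Of 8 angiogenesis inhibitors 5 were measured, with a median of 0.04 and 0 at an unadjusted p under 0.05. The count was 1 in the blocked fit and 1 without random 3, both lower on aligned fibers. It was also 1, higher on aligned fibers, on the mean of all kept probe sets of a gene. TIMP3 differed by 0.25 ± 0.12, THBS1 by -0.41 ± 0.23, VASH1 by 0.10 ± 0.08 and THBS2 by 0.04 ± 0.13. The 4 kept probe sets of TIMP3 ran from 0.25 to 0.52. TIMP3 was at 0.14 without aligned 3, THBS1 at -0.21 without random 2 and VASH1 at 0.03 without random 3, and THBS2 turned to -0.10 without aligned 1. The median ran from 0.009 without aligned 1 to 0.09 without random 1, and was -0.007 over 3 genes with the filter at the 75th percentile.

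**Figure D4:**
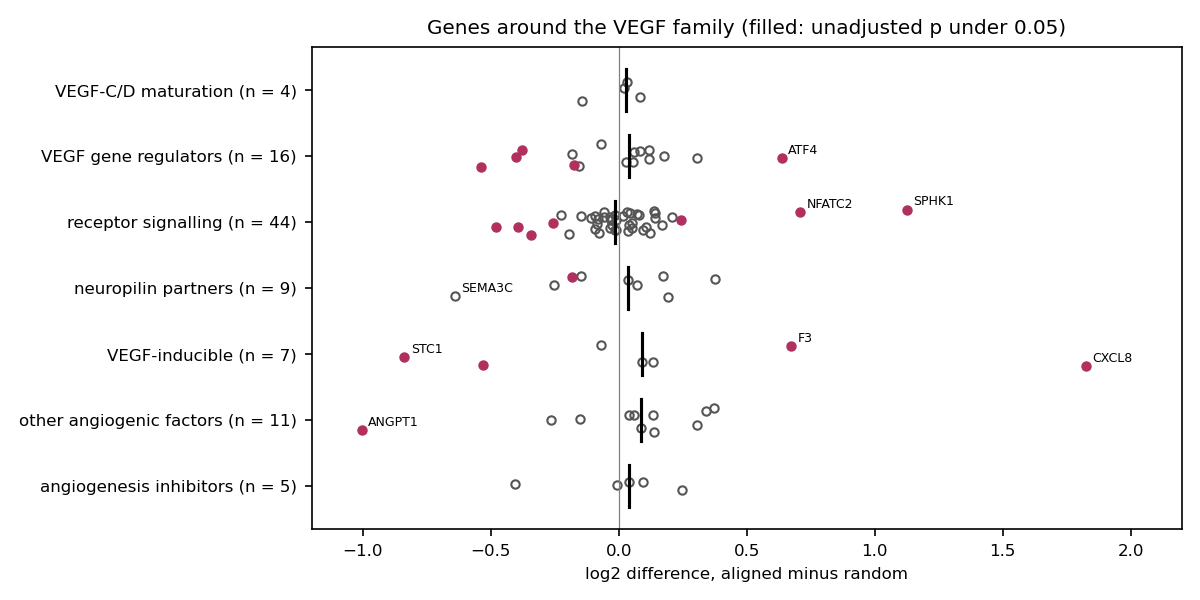
Each point is the log2 difference (aligned minus random) of 1 measured gene in 7 lists of VEGF biology, filled where the unadjusted p was under 0.05, with a bar at the median of the list and names beside genes beyond 0.6 in either direction. The medians lie between -0.01 and 0.09 and, with an array left out, between -0.053 and 0.16, while CXCL8 at 1.82, SPHK1 at 1.13 and ANGPT1 at -1.003 lie farthest out.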

How the data were processed

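RNA of 3 aligned and 3 random cultures was read on 1 array each. The authors deposited log2 values made with RMA, which corrects background, equalises distributions and summarises probes, per the submitters' processing notes; its version is not given in the sources used here. Groups and replicate numbers came from the titles. After removal of 62 control probe sets, 27621 of 54613 were kept by the filter. Aligned minus random was fitted with limma 3.58.1 in R 4.3.3, without a block, and p-values were adjusted over all kept probe sets or all 12381 genes. The number of arrays limits the precision (median SE 0.10). Intervals are 95% intervals of that fit. The code was tested on simulated data.

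Members and lists were chosen with earlier results of these data known. By rule the text names all 9 members, up to 4 genes per list with the smallest unadjusted p, any gene needed to account for a count of 5 or fewer, and the 5 genes correlating most with VEGFC, VEGFA and NRP1. Marker genes, and the genes of the maturation list that were not measured, are named beside that rule. A symbol needed exactly 1 gene in the platform annotation, which held for 41091 probe sets, while 1801 had several and 11721 none.

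Same-numbered arrays deviated together from their group means, with correlations across genes of 0.369, 0.322 and 0.109, all above the limit of 0.1 for reading equal numbers as pairs. The fit without the block stayed the main one, and every SE, interval and p is from it unless the block is named. Aligned 2 and random 3 also correlated, by 0.188, and no label states the pairing. Alternatives were the block, 2 other filters, 2 rescalings, another prior, 2 other rules for the probe set of a gene, and each array left out. Figures were drawn with matplotlib 3.10.9.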

Additional observations from a re-analysis of the deposited data

How the results depend on the processing

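With the replicate number as a block, 0 probe sets and 0 genes passed the adjusted threshold, and no member's adjusted call changed. Of the 22 kept probe sets of the family other than VEGFC, 3 had an unadjusted p under 0.05 in that fit. This is near the share over all probe sets, 3710 of 27621. No kept member probe set other than VEGFC passed the adjusted threshold under any alternative run, and the lowest adjusted p among them was 0.152. VEGFC ran from 0.40 to 0.58 with an array left out and kept its direction under every alternative run. It was chosen on this contrast and its groups did not overlap, so leaving out an array could not reverse its sign. Nothing is drawn from its kept direction. Over all probe sets the count past the adjusted threshold was 0 to 1 with an array left out, the 1 arising without aligned 1, and for genes it was 0 throughout. At an unadjusted p under 0.05 there were 624 to 2491 genes and 1262 to 4812 probe sets with an array left out, lowest without random 3 and highest without aligned 1. Without aligned 3 there were 815 genes and 1494 probe sets, and without random 2 there were 739 and 1558. The filter at the 75th percentile gave 851 genes and 1380 probe sets, and no filter gave 4698 probe sets, where the number tested also differed. Members at that threshold numbered 0 to 4 and genes of the 7 lists 8 to 23 with an array left out, and 11 list genes met it with probe sets of suffix _x_at or _s_at left out, where 70 in place of 96 list genes were measured.

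Of 23 kept member probe sets, 14 reversed sign under at least 1 alternative, none of them called. With an array left out VEGFA ran from -0.11 to 0.17, -0.12 to 0.12, -0.16 to 0.13 and -0.0083 to 0.18 on its 4 probe sets. NRP2 ran from -0.21 to 0.093 (225566_at), -0.47 to 0.015 (222877_at), -0.28 to 0.15 (214632_at), -0.43 to 0.061 (219367_s_at), -0.23 to 0.15 (229225_at), -0.27 to 0.19 (211844_s_at), -0.58 to 0.024 (223510_at) and -0.44 to 0.11 (210842_at). KDR ran from -0.32 to 0.069. FLT1 ran from -0.043 to 0.026, and with repeated quantile normalization it was at 0.033. The cause of these reversals was not tested. Signal over background could be judged only by rank, and no detection limit was computed for the dim probe sets.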
